A study of Mus musculus with 50 samples.

Results

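Vegfa encodes the secreted ligand VEGF-A, Kdr encodes VEGFR2, the main signalling receptor for that ligand on vessels, and Eng encodes endoglin, an endothelial co-receptor for BMP and TGF-beta ligands. These 3 of the 1000 gene targets of a mouse CosMx panel were described here, Vegfa in hepatocyte-sized cells and the receptors in small cells. CosMx is an imaging assay that decodes single transcripts in tissue sections and assigns them to segmented cells. A cell was called hepatocyte-sized when its segmented area was at least 15000 square pixels and small below that. Liver sections of 5 µm from formalin-fixed, paraffin-embedded median lobes of mice aged 18 months were imaged in 50 fields of view, 25 per group. HIRA KO livers came from C57BL/6 mice with HIRA fl/fl alleles injected with AAV8-TBG-Cre when 6 months old, and control livers from wild-type C57BL/6 mice given the same virus at the same age. All animals were kept for 12 further months after the injection. Cre was driven by the TBG promoter, which is active in hepatocytes, so the vessel cells were not the ones targeted. HIRA is a histone chaperone that deposits the variant H3.3. Hira itself was not among the targets, so the deletion could not be checked in these counts.

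In liver, hepatocytes are a known source of VEGF-A, which reaches the sinusoidal endothelium on the other side of a narrow space. Binding to VEGFR2 maintains the survival and the fenestrated state of these vessels, while VEGFR1, encoded by Flt1, binds the same ligand and is often regarded as a decoy. Endoglin works beside ALK1, encoded by Acvrl1, and beside the BMP type 2 receptor. Sinusoidal endothelium differs along the lobule, from the portal vessels to the central vein, where hepatocytes express Glul, the glutamine synthetase.

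After cells with under 20 counts and very large objects were left out, 49665 of 52132 segmented cells remained, of which 20842 were hepatocyte-sized and 28823 were small. All 9 hepatocyte markers on the panel had a higher level in hepatocyte-sized than in small cells in all 6 areas. Of 10 endothelial markers, 5 (Pecam1, Cdh5, Clec14a, Esam and Bmp2) were higher in small cells in all 6 areas. The fields lay in 6 separate tissue areas of 8 or 9 fields, 3 control and 3 HIRA KO, and the area was the replicate in the comparisons given here. The study's methods describe biological replicates, but the labels tie no area to an animal, so p-values measure only the spread between these areas, which may be technical. Each of 3 slide rows held 1 area of each group, but the control areas shared a slide column and the HIRA KO areas shared the opposite one, so side of slide and genotype cannot be told apart. Gene counts per area ranged from 718991 to 1542205. The density was 6.17 to 8.62 counts per 1000 square pixels in control areas and 10.3 to 11.2 in HIRA KO areas, which did not overlap. Levels are given as CPM, counts per 1e+06 summed gene counts of the same cells, and are not compared between targets because each target has its own probes. The exact test of 3 areas against 3 cannot give a p below 0.1, and the exact sign-flip test over 6 areas cannot give one below 0.03125.

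Vegfa was well above background and lay mostly in large cells. Its 16809 counts were 4.39 times the count of the highest negative probe, a probe with no target in the mouse. Of these, 76.7% fell in hepatocyte-sized cells, which held 72.7% of the cell area, 63.1% of all gene counts and 70.8% of negative-probe counts. In hepatocyte-sized cells the Vegfa level was 3395, 2805 and 4002 CPM in control areas 1 to 3 and 2369, 2606 and 3190 CPM in HIRA KO areas 1 to 3. In small cells it was 1704, 1700 and 1922 CPM in the control areas and 1435, 1549 and 1306 CPM in the HIRA KO areas. Every area had a higher level in its hepatocyte-sized cells. The difference was 0.92 ± 0.23 on the log2 CPM scale (SD, n = 6 areas), higher in 6 of 6 areas (exact sign-flip permutation test, p = 0.03125, the smallest possible). Vegfa was set in these cells beforehand and chosen with earlier results of these data known, so this test is no independent support. Over all 998 targets tested, 29.1% were higher in hepatocyte-sized cells in all 6 areas and the adjusted p was 0.0624. By size of the difference Vegfa stood at place 8 of 1000, among targets made by hepatocytes such as Ttr and Apoa1. The mean negative probe was also higher in hepatocyte-sized cells, by 0.53 on the same scale. Per unit of cell area the Vegfa difference was 0.28 ± 0.20 on the log2 scale, positive in 6 of 6 areas, and that of the mean negative probe was -0.07 ± 0.07.

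**Figure D1:**
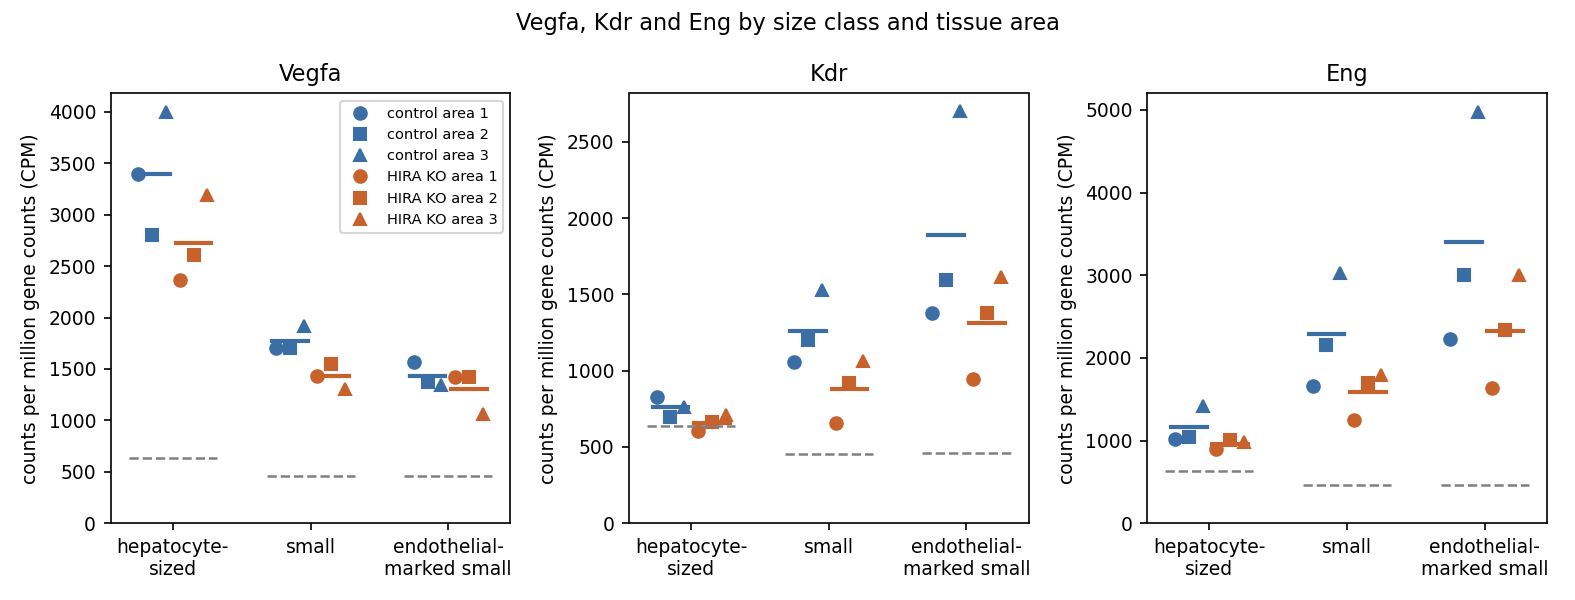
Level of Vegfa, Kdr and Eng in CPM (vertical axis) in hepatocyte-sized, small and endothelial-marked small cells. Each point is 1 tissue area, blue for control and orange for HIRA KO, short bars are group means, and dashed lines are the mean over areas of the highest negative probe in the same cells. Vegfa is highest in hepatocyte-sized cells, Kdr and Eng in endothelial-marked small cells, and Kdr in hepatocyte-sized cells lies close to the dashed line.

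In level the receptors showed the reverse order, although 54.8% of the Kdr counts and 49.8% of the Eng counts fell in hepatocyte-sized cells. Kdr had 5544 counts, 1.45 times the highest negative probe, and Eng had 9004 counts, 2.35 times that probe, so that the background weighs most on Kdr. Small cells held 45.2% of the Kdr counts and 50.2% of the Eng counts, against 36.9% of all gene counts. In small cells Kdr was at 1054, 1202 and 1526 CPM in control areas 1 to 3 and at 659, 917 and 1066 CPM in HIRA KO areas 1 to 3. In hepatocyte-sized cells it was at 828.6, 697 and 758 CPM and at 604, 666 and 707 CPM. The latter values were close to the highest negative probe in the same cells, which averaged 614 CPM in control and 654 CPM in HIRA KO areas. Eng was at 1665, 2157 and 3026 CPM in small cells of the control areas and at 1246, 1701 and 1798 CPM in those of the HIRA KO areas. In hepatocyte-sized cells Eng was at 1015, 1047 and 1415 CPM in control and at 899, 1003 and 982 CPM in HIRA KO areas. The level in hepatocyte-sized cells was below that in small cells in 6 of 6 areas for each receptor. The difference was -0.55 ± 0.32 for Kdr and -0.83 ± 0.23 for Eng on the log2 CPM scale (SD, n = 6, exact sign-flip permutation test, p = 0.03125 for each, adjusted p over all 998 targets 0.0624). The receptors were likewise set in small cells beforehand, so these tests are no independent support either. Of all targets, 21% were lower in hepatocyte-sized cells in all 6 areas. By this difference, counted from the targets highest in hepatocyte-sized cells, Kdr stood at place 959 and Eng at place 989 of 1000.

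Small cells with at least 2 counts over 10 endothelial markers, a list that contains neither Kdr nor Eng, were called endothelial-marked. These 6554 cells held 11.1% of all gene counts, 20.5% of the Kdr counts, 22.5% of the Eng counts and 6.14% of the Vegfa counts. When each small cell was instead assigned to the marker list with the most counts, Kdr and Eng were highest in the endothelial class (classes are named for their list and are not verified cell types). Kdr was at 2145 ± 976 CPM there (SD, n = 6 areas), with a range of 1197 to 3958 CPM. The next class was the 16084 small cells with no leading list, at 1066 ± 318 CPM, and the endothelial level was above it in 6 of 6 areas by 0.96 ± 0.31 on the log2 scale (exact sign-flip permutation test, p = 0.03125, Benjamini-Hochberg adjusted p over 18 neighbouring pairs 0.11). Below these, the Kdr levels of 710 CPM in hepatocyte-sized, 681 in Kupffer, 670 in T and NK and 587 in stellate cells did not differ beyond their spread from one class to the next. The cholangiocyte class, which should lack the gene, had 412 ± 146 CPM from 52 Kdr counts, below stellate cells in 5 of 6 areas by 0.57 ± 0.64 on the log2 scale (exact sign-flip permutation test, p = 0.0938), and the mean negative probe there was 260 ± 36.5 CPM. Median counts per cell were 91 in the endothelial and 108.5 in the cholangiocyte class.

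Eng was at 3629 ± 1642 CPM in the endothelial class (SD, n = 6), ranging from 1921 to 6507 CPM. It was followed by stellate cells at 1819 ± 393 CPM, and the endothelial level was higher in 6 of 6 areas by 0.91 ± 0.44 on the log2 scale (exact sign-flip permutation test, p = 0.03125, adjusted p 0.11). Stellate cells and cells with no leading list (1746 ± 535 CPM) did not differ beyond their spread. The lowest mean was in the cholangiocyte class at 749 ± 211 CPM, which was below hepatocyte-sized cells (1060 CPM) in 6 of 6 areas.

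The order of classes for Vegfa was different at the top. Hepatocyte-sized cells had 3061 ± 594 CPM and cholangiocyte cells had 2839 ± 795 CPM (SD, n = 6), a difference of 0.14 ± 0.22 on the log2 scale that was positive in 4 of 6 areas (exact sign-flip permutation test, p = 0.219). Cholangiocyte cells were above the cells with no leading list (1904 ± 297 CPM) in 6 of 6 areas by 0.54 ± 0.38. The endothelial class had 1529 ± 113 CPM, above stellate cells at 1069 ± 179 CPM in 6 of 6 areas. Kupffer cells had the lowest level, 887 ± 242 CPM, against a mean negative probe of 272 ± 48.2 CPM. The cholangiocyte values rest on 327 Vegfa counts in 1032 cells, with as few as 75 cells in an area.

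**Figure D2:**
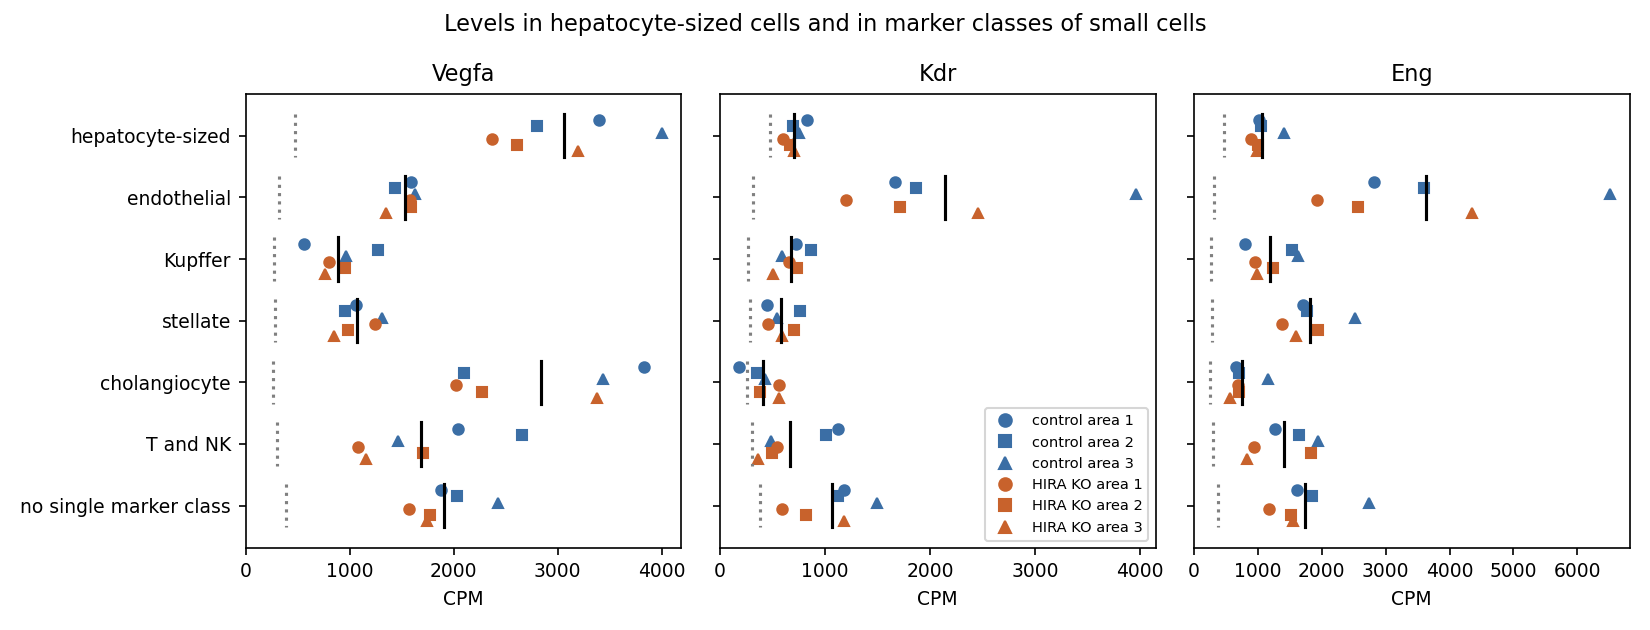
Level of Vegfa, Kdr and Eng in CPM (horizontal axis) in hepatocyte-sized cells and in small cells grouped by the marker list with the most counts. Points are tissue areas, black bars the mean of 6 areas and dotted bars the mean negative probe. The endothelial class leads for Kdr and Eng, while hepatocyte-sized and cholangiocyte cells lead for Vegfa.

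Vegfa transcripts lay over the nucleus more often than those of nearly all other targets. The share of in-cell Vegfa transcripts placed in the nuclear compartment was 79.0%, 77.4% and 80.5% in control areas 1 to 3 and 73.5%, 73.8% and 77.6% in HIRA KO areas 1 to 3. All 6 areas exceeded the median target, which was at 50.8%. Over 757 targets above the highest negative probe, Vegfa stood at place 2, after the nuclear long non-coding RNA Neat1, with pooled shares of 76.8% and 89.3%. The next target, Il15ra, was at 76.5%. Kdr was at 53.5% ± 1.74 and Eng at 55.7% ± 2.503 (SD, n = 6), close to the median target, and negative probes were at 28.8% ± 2.15. Within hepatocyte-sized cells the Vegfa share was 78.6% ± 2.73, again at place 2 of 659 targets, and in small cells it was 71.2% ± 3.27, at place 22 of 882. The difference of the Vegfa share, HIRA KO minus control, was -3.96 percentage points (exact permutation test, p = 0.2). All targets together were at 50.9% ± 3.06 in control and 45.7% ± 2.58 in HIRA KO areas, and the part of this general difference in the Vegfa value was not tested.

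**Figure D3:**
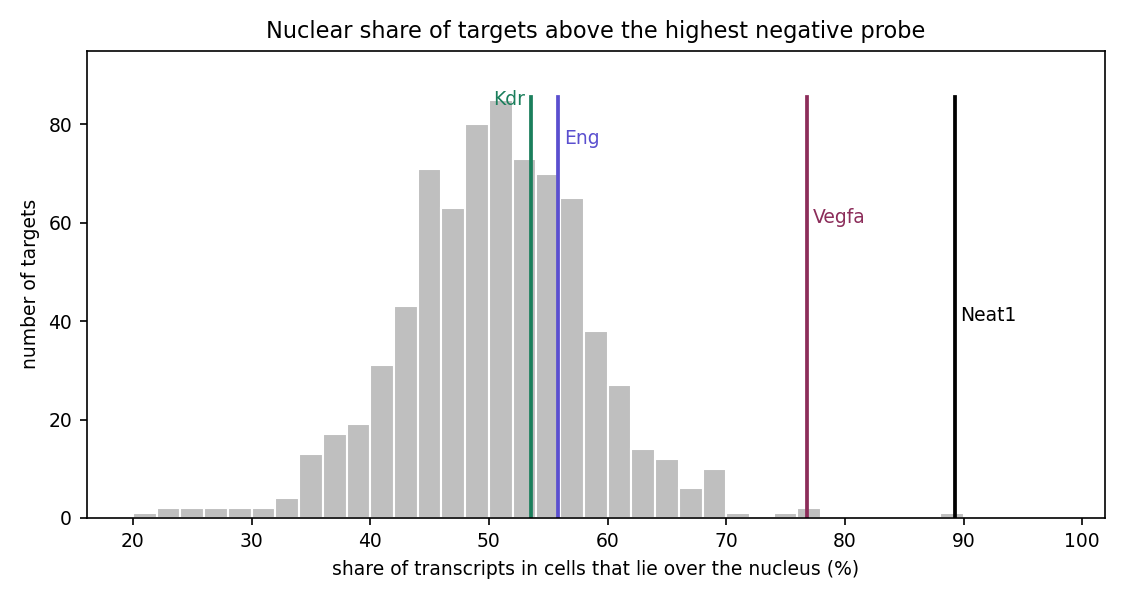
Number of targets (vertical axis) by share of their in-cell transcripts that lie over the nucleus, in percent (horizontal axis), for 757 targets above the highest negative probe, pooled over the 6 areas. Vertical lines mark Kdr at 53.6% and Eng at 55.8% near the middle of the distribution, and Vegfa at 76.8% and Neat1 at 89.3% at its upper end.

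By distance to Glul-high cells the receptors varied and no difference was detected for the ligand. Glul-high cells were hepatocyte-sized cells in the top 5% of their area by Glul share and with at least 3 Glul counts, 57 to 161 cells per area, and they were left out of the levels compared. Kdr in small cells was at 1160, 1270 and 1841 CPM in the nearest tertile of distance to a Glul-high cell in control areas 1 to 3, and at 807, 876 and 1392 CPM in HIRA KO areas 1 to 3. In the farthest tertile it was at 796, 1232 and 1128 CPM and at 495, 874 and 979 CPM. Near exceeded far in 6 of 6 areas, but in HIRA KO area 2 by under 2 CPM. The mean difference was 0.42 ± 0.32 on the log2 CPM scale (SD, n = 6, exact sign-flip permutation test, p = 0.03125). Eng was at 1878, 2244 and 3637 CPM near and at 1442, 1955 and 2191 CPM far in the control areas. In the HIRA KO areas it was at 1422, 1802 and 2154 CPM near and at 912, 1463 and 1416 CPM far. Near exceeded far in all 6 areas for Eng, by 0.48 ± 0.21 on the log2 scale (exact sign-flip permutation test, p = 0.03125). Of 998 targets, 2.61% were higher near in small cells of all 6 areas, and the adjusted p over all of them was 0.664 for each receptor. By this difference Eng stood at place 6 and Kdr at place 11 of 1000. The difference did not differ detectably between genotypes (exact permutation test, p = 0.7 for Kdr and 0.8 for Eng).

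The nearer small cells also differed in kind. Endothelial-marked cells were 24.96% ± 3.23 of small cells near and 22.1% ± 3.58 far, higher in 6 of 6 areas, and the summed stellate markers were higher near by 0.32 ± 0.17 on the log2 scale in 6 of 6 areas. The summed endothelial markers differed by 0.16 ± 0.20 (higher in 4 of 6 areas), the hepatocyte markers by 0.06 ± 0.35 and the mean negative probe by 0.01 ± 0.32. The summed Kupffer markers were higher near by 0.17 ± 0.21 in small cells and by 0.24 ± 0.27 in endothelial-marked cells, in 5 of 6 areas each. Within endothelial-marked cells alone Kdr was higher near by 0.32 ± 0.31 in 5 of 6 areas (exact sign-flip permutation test, p = 0.0938) and Eng by 0.43 ± 0.31 in 5 of 6 areas (p = 0.0625, exact). In small cells without any endothelial marker count Eng was higher near by 0.51 ± 0.19 in 6 of 6 areas, and Kdr by 0.34 ± 0.35 in 4 of 6. How far the cell mixture enters the differences over all small cells was not tested.

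Vegfa in hepatocyte-sized cells was at 3324, 2840 and 4220 CPM near Glul-high cells and at 3618, 2745 and 4089 CPM far from them in control areas 1 to 3. In HIRA KO areas 1 to 3 it was at 2504, 2554 and 3210 CPM near and at 2169, 2721 and 3133 CPM far. The signs were mixed, with a mean difference of 0.02 ± 0.12 on the log2 scale, positive in 4 of 6 areas (exact sign-flip permutation test, p = 0.719). Each area was also cut into 5 bins of distance with about equal numbers of cells. Over these bins the mean Vegfa level moved between 3004 and 3202 CPM. Eng went from 2175 CPM in the nearest bin to 1545 CPM in the farthest and Kdr from 1170 to 891 CPM, with its highest mean, 1279 CPM, in the second bin. In HIRA KO area 1 the farthest bin had a median distance of 7410 pixels for hepatocyte-sized and 6446 for small cells. In the other areas it was 1977 to 3550 and 2026 to 3497 pixels, so the bins are not a common scale of distance.

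**Figure D4:**
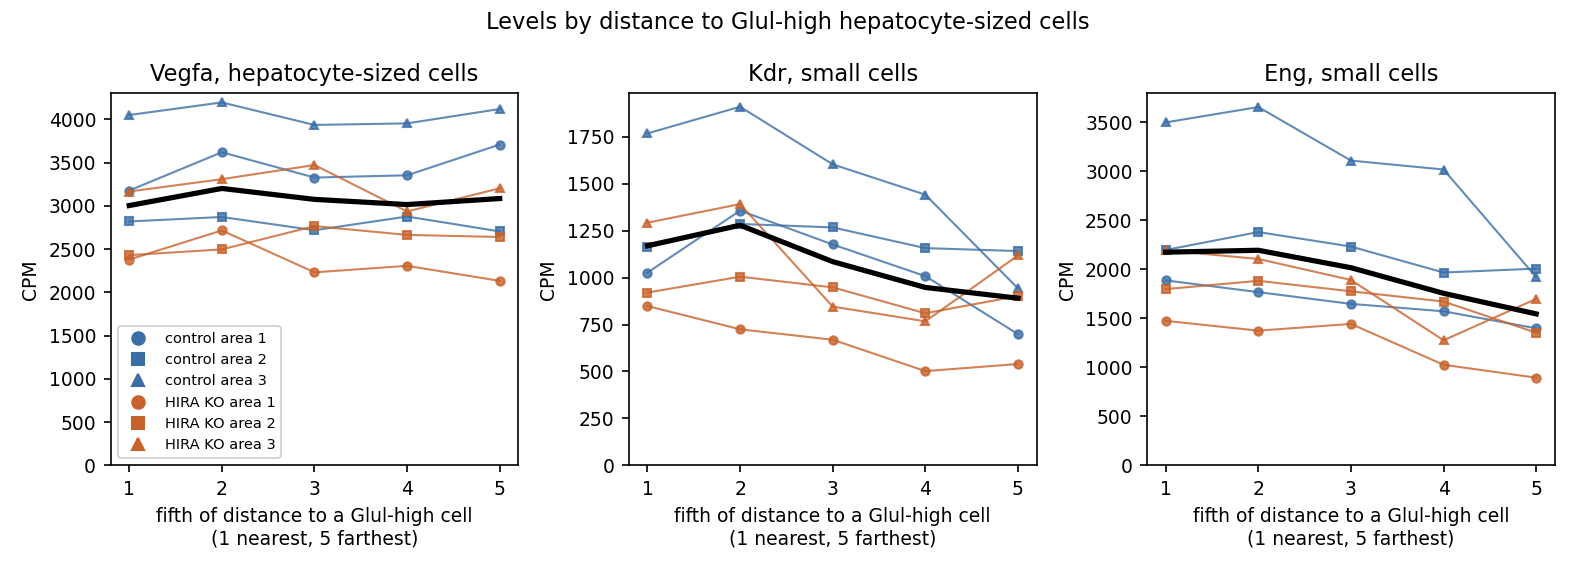
Level in CPM (vertical axis) over 5 bins of distance to the nearest Glul-high cell (horizontal axis, 1 nearest), for Vegfa in hepatocyte-sized cells and Kdr and Eng in small cells. The bins of an area hold about equal numbers of cells. Thin lines are tissue areas and thick lines their mean, which falls from 2175 to 1545 CPM for Eng and from 1170 to 891 CPM for Kdr and stays between 3004 and 3202 CPM for Vegfa.

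Kdr and Eng also varied together over fields of view. Over the 50 fields the Pearson correlation of their log2 CPM in small cells was 0.84 (Spearman 0.84), and after each area was centred on its own mean it was 0.70 (Spearman 0.54). It was positive within each of the 6 areas, from 0.10 to 0.88. Kdr with Vegfa in hepatocyte-sized cells had a pooled correlation of 0.47 but -0.17 after centring, and it was positive in 1 of 6 areas. Eng with Vegfa went from 0.48 pooled to -0.07 centred. So the pooled relation of ligand and receptors over fields was one between areas and was not seen within them. Fields of 1 area share a section, and Kdr and Eng of a field share their total. Within areas Kdr was correlated with the share of cells that were hepatocyte-sized (0.62 centred) and with the count density (-0.52 centred), and Eng with the density at -0.47. The mean negative probe of small cells, which divides by the same total, was also correlated with Kdr (0.37 centred) and Eng (0.33 centred), positive in 5 of 6 areas each. The part of these in the relation of the receptors was not tested.

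**Figure D5:**
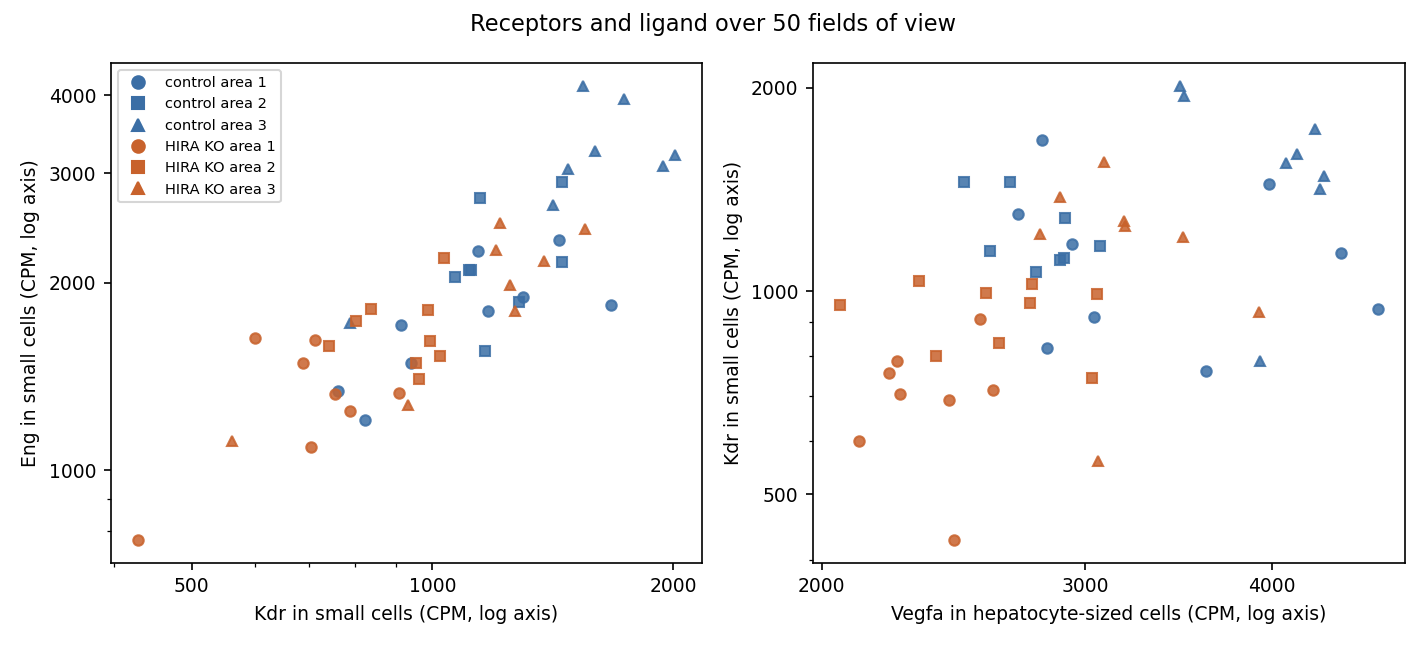
Eng against Kdr in small cells (left) and Kdr in small cells against Vegfa in hepatocyte-sized cells (right), in CPM on log axes. Each point is 1 of 50 fields of view, with symbols for the tissue area. On the left Eng rises with Kdr over the fields, with correlations within areas from 0.10 in HIRA KO area 2 to 0.88 in HIRA KO area 3. On the right the areas are displaced from each other and the fields within an area show no common rise.

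Around single cells no difference was detected for Kdr and Eng. Hepatocyte-sized cells at or above the 75th percentile of their area by Vegfa share were set against those at or below the 25th, all of which had 0 Vegfa counts. Because of ties at 0 the low group held 1645 to 2617 cells per area, and the high group 776 to 1011. The median Vegfa-high cell had 1 or 2 Vegfa counts, so the contrast was between few counts and none. Among the 20 nearest cells, small cells around Vegfa-high cells had 1257 ± 334 CPM of Kdr and those around Vegfa-low cells had 1235 ± 283 CPM (SD, n = 6 areas). For Eng the levels were 2142 ± 658 and 2126 ± 661 CPM. The differences were 0.02 ± 0.09 for Kdr (exact sign-flip permutation test, p = 0.594) and 0.01 ± 0.05 for Eng (p = 0.406, exact) on the log2 scale, each positive in 4 of 6 areas. The summed endothelial markers were higher around Vegfa-high cells by 0.024 ± 0.011 in 6 of 6 areas (exact sign-flip permutation test, p = 0.03125). The Vegfa-high cells themselves were deeper, with a mean over areas of 191.5 median counts per cell against 171.25, higher in 6 of 6 areas.

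By centred correlation over the 50 fields, among 995 targets in small cells, the likest target to Kdr was Eng (0.70) and the likest to Eng was Kdr. Kdr was followed by Cd5l (0.68), a macrophage secreted protein, Slc40a1 (0.66), the iron exporter ferroportin, Ifitm2 (0.65) and the complement chain C1qc (0.64). Eng was followed by the type 1 receptor Acvr1 (0.66), the ligand Bmp2 (0.63), the endothelial adhesion receptor Adgrl4 (0.63) and C1qc (0.61). The other VEGF receptor, Flt1, stood at place 150 for Kdr (0.27) and at place 130 for Eng (0.33), and the median target was at 0.06 and 0.09. For Vegfa in hepatocyte-sized cells the likest of 997 targets were Adgrf1 (0.52), Stat5a (0.50), Thsd4 (0.49), Rnf43 (0.48) and S100a8 (0.47), with the median target at 0.01. Neat1, its neighbour by nuclear share, stood at place 427 (0.04).

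The upstream sequences of Kdr and Eng are shown because these 2 genes had each other as the likest target over fields. In GRCm38 with GENCODE vM21 genes, Kdr lies at chr5:75932827-75978458 on the minus strand, Eng at chr2:32646595-32682669 on the plus strand and Vegfa at chr17:46016993-46032369 on the minus strand. The 250 bases before the annotated RefSeq starts (GRCm38.p6) are chr5:75978456-75978705 for Kdr and chr2:32646345-32646594 for Eng, written 5′ to 3′ on the strand of the gene. Capitals mark GGAA on either strand, the core of sites for ETS factors, a family active in endothelium.
Kdr: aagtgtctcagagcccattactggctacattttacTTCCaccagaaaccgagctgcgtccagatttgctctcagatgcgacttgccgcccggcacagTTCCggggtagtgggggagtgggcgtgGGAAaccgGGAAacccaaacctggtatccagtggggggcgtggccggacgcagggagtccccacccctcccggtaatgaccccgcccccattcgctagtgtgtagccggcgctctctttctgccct
Eng: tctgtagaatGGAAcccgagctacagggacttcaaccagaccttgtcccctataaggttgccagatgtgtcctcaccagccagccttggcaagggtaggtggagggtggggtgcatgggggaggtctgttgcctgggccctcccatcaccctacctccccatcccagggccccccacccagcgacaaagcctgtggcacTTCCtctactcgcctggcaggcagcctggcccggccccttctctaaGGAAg
The Kdr window holds 4 and the Eng window 3 such cores. Of 32851 mouse promoter windows of this length, 93.4% hold at least 1 and the median window holds 3, so the count is an ordinary one, and a match is only a description of the letters.

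For the ligand, the comparison of genotypes depended on what the counts were divided by. Vegfa in hepatocyte-sized cells averaged 3401 ± 599 CPM in control and 2722 ± 423 CPM in HIRA KO areas (SD, n = 3 each), and the groups overlapped. The edgeR quasi-likelihood test gave a log2 fold change of -0.19 with SE 0.21 and a Benjamini-Hochberg adjusted p of 0.849. In that fit 0.1% of targets were called at an adjusted p under 0.05, and Vegfa was not among them. The fold change was -0.033 without control area 3, -0.07 without HIRA KO area 1, -0.33 without control area 2 and -0.37 without HIRA KO area 3. Scaled by library size alone, without the TMM scaling of that fit, it was -0.32 in edgeR. With the mean negative probe subtracted from the CPM, also without TMM, the difference was -0.39 (exact permutation test, p = 0.2). Within the 3 slide rows the HIRA KO area was below its control neighbour by -0.52, -0.11 and -0.33 on the log2 CPM scale, and 42.2% of all targets were lower in all 3 rows. In small cells Vegfa was at 1775 ± 127 CPM in control and 1430 ± 122 CPM in HIRA KO areas without overlap (exact permutation test, p = 0.1), where 10.1% of targets were lower without overlap. Per megapixel of small cells it was higher without overlap, 19.5 ± 0.70 counts in HIRA KO against 17.7 ± 0.89 in control areas (exact permutation test, p = 0.1), as were 46.2% of targets. Per megapixel of cell area, hepatocyte-sized cells of control areas held 18.7, 22.6 and 20.5 Vegfa counts and those of HIRA KO areas 20.1, 25.6 and 31.6, a mean of 20.6 against 25.8 (exact permutation test, p = 0.3). On this scale the direction was turned, as for targets in general: in hepatocyte-sized cells 37.9% of targets were higher in HIRA KO areas without overlap, and the mean negative probe was at 2.93 ± 0.80 in control and 4.54 ± 0.30 in HIRA KO areas, also without overlap. Relative to the mean negative probe of the same hepatocyte-sized cells, Vegfa was at 7.26 ± 1.197 in control and 5.66 ± 1.14 in HIRA KO areas (exact permutation test, p = 0.2).

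The share of hepatocyte-sized cells with at least 1 Vegfa count was 36.3% ± 1.66 in control and 40.8% ± 6.05 in HIRA KO areas. After each cell was thinned to 50 counts it was 14.2% ± 2.59 and 11.7% ± 1.53 (exact permutation test, p = 0.3), when 2.42% and 2.44% of cells had a count of an average negative probe. Between 0% and 4.56% of hepatocyte-sized cells per area were too shallow for this and were left out. The order of the groups in the unthinned share was therefore the reverse of that at equal depth.

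Kdr and Eng had lower levels in HIRA KO small cells without passing the test. Kdr averaged 1261 ± 241 CPM in control and 881 ± 206 CPM in HIRA KO areas, and Eng 2283 ± 689 and 1582 ± 295 CPM (SD, n = 3 each). The groups overlapped for each gene, with control area 3 the highest and HIRA KO area 1 the lowest. The log2 fold change of the edgeR quasi-likelihood test was -0.42 (SE 0.22, unadjusted p = 0.0726, Benjamini-Hochberg adjusted p = 0.906) for Kdr and -0.44 (SE 0.25, unadjusted p = 0.103, adjusted p = 0.915) for Eng, in a fit that called 0.1% of targets. Without control area 3 these fold changes were -0.22 and -0.14, without HIRA KO area 1 they were -0.22 and -0.26, and without HIRA KO area 3 that of Kdr was -0.66. Scaled by library size alone, without TMM, the fold change of Kdr was -0.52 in edgeR. With the mean negative probe subtracted from the CPM, also without TMM, the difference was -0.86 for Kdr (exact permutation test, p = 0.1). Within slide rows Kdr was lower by -0.68, -0.39 and -0.52 and Eng by -0.42, -0.34 and -0.75 on the log2 CPM scale, and 32.2% of all targets were lower in all 3 rows of small cells. With the slide row as a block in edgeR the adjusted p was 0.17 for Kdr and 0.197 for Eng.

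Per megapixel the receptor means in small cells lay close together. Kdr was at 10.3, 13.01 and 14.3 counts in control and at 8.62, 11.9 and 16.1 in HIRA KO areas, a mean of 12.5 against 12.2 (exact permutation test, p = 1). Eng was at 16.3, 23.4 and 28.3 in control and at 16.3, 22.1 and 27.2 in HIRA KO areas (exact permutation test, p = 0.7). Targets in general were higher on this scale, with a median log2 ratio of 0.35 over all targets, and the mean negative probe was at 3.21 ± 0.62 in control and 4.64 ± 0.32 in HIRA KO areas. Relative to that probe Kdr was at 3.95 ± 0.68 in control and 2.63 ± 0.83 in HIRA KO areas and Eng at 7.11 ± 1.88 and 4.71 ± 1.18, with overlap (exact permutation test, p = 0.2 for each). The summed endothelial markers in small cells were 11957 ± 1096 CPM in control and 9581 ± 663 CPM in HIRA KO areas without overlap (exact permutation test, p = 0.1). The summed hepatocyte markers in small cells were 26262 ± 5893 CPM in control and 44756 ± 8647 CPM in HIRA KO areas without overlap (exact permutation test, p = 0.1), and 36.7% ± 5.75 of HIRA KO cells were hepatocyte-sized against 49.3% ± 4.90 of control cells. How far these enter the receptor levels in CPM was not tested.

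In endothelial-marked cells the receptor levels were again lower in HIRA KO areas without passing the test. These cells were 20.4%, 27.04% and 21.3% of small cells in control areas 1 to 3 and 20.2%, 22.98% and 26.995% in HIRA KO areas 1 to 3 (exact permutation test, p = 1). As a share of all kept cells they were 11.5% ± 1.11 in control and 14.7% ± 0.89 in HIRA KO areas, and per megapixel of cell area 6.65 ± 0.60 and 10.45 ± 0.80 cells, both without overlap (exact permutation test, p = 0.1 for each). The rule needs a fixed 2 marker counts. Median counts of small cells were 77 to 91 in HIRA KO and 59 to 75 in control areas. The part of depth in these shares was not tested. Of small cells, 16.4% ± 2.97 in control and 15.2% ± 1.56 in HIRA KO areas had the endothelial list leading (exact permutation test, p = 0.7). The paper reported a significant decrease in the relative abundance of endothelial cells from its own clustering. The share of small cells has another denominator, and the share of all kept cells given above was higher in HIRA KO areas. The cells here were chosen by other rules than the paper's clusters, and the reason for the opposite direction was not tested. In the endothelial-marked small cells Kdr was at 1379, 1593 and 2704 CPM in control and at 947, 1380 and 1615 CPM in HIRA KO areas. Eng was at 2230, 3001 and 4972 CPM and at 1631, 2341 and 3007 CPM. The groups overlapped, and control area 3 stood far above the other areas for each gene. The edgeR log2 fold change was -0.47 for Kdr (SE 0.27, unadjusted p = 0.0994, Benjamini-Hochberg adjusted p = 0.82). For Eng it was -0.49 (SE 0.33, unadjusted p = 0.149, adjusted p = 0.867). Without control area 3 the fold changes were -0.06 for Kdr and -0.04 for Eng. Within slide rows the HIRA KO area was below its control neighbour by -0.54, -0.21 and -0.74 for Kdr and by -0.45, -0.36 and -0.73 for Eng on the log2 CPM scale, and 22.4% of the targets beside the markers that chose the cells were lower in all 3 rows. Per megapixel the row differences were -0.22, -0.07 and -0.23 for Kdr and -0.13, -0.22 and -0.22 for Eng on the log2 scale. On this scale 1.21% of those targets were lower in all 3 rows. As group levels per megapixel, Kdr was at 22.7 ± 7.45 counts in control and 20.05 ± 6.13 in HIRA KO areas. Eng was at 40.8 ± 15.3 counts in control and 35.6 ± 12.5 in HIRA KO areas. These group levels overlapped for each gene (exact permutation test, p = 0.6 for each). With the slide row as a block in edgeR the fold changes were -0.45 for Kdr (unadjusted p = 0.00559, adjusted p = 0.192) and -0.47 for Eng (unadjusted p = 0.00748, adjusted p = 0.22). In that fit 109 of 998 targets had an unadjusted p under 0.05, against 53 without the block. The summed hepatocyte markers in the endothelial-marked cells were 19453 ± 4486 CPM in control and 38535 ± 7443 CPM in HIRA KO areas. These did not overlap (exact permutation test, p = 0.1), and how far they enter the receptor levels in CPM was not tested.

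Of the 988 targets tested beside the markers that chose the cells, 0% were called by edgeR, 52 (5.26%) had an unadjusted p under 0.05, and DESeq2 called 6 with those markers included. The share of endothelial-marked cells with at least 1 count was 14.97% ± 3.02 in control and 13.4% ± 3.50 in HIRA KO areas for Kdr, and 25.9% ± 6.65 and 22.3% ± 6.15 for Eng. An average negative probe had a count in 2.64% ± 0.40 and 3.66% ± 0.22 of the same cells. After thinning to 50 counts, which left out 6.68% to 17.9% of these cells per area, the shares were 8.01% ± 2.68 and 6.57% ± 1.69 for Kdr (exact permutation test, p = 0.6) and 15.4% ± 5.87 and 11.8% ± 2.67 for Eng (exact permutation test, p = 0.5), with an average negative probe at 1.29% and 1.45%. The lower receptor CPM in sums over small cells of all kinds does not separate the share of cells that carry a receptor from the level per such cell. Per megapixel of small cells the receptors were not detectably lower.

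In hepatocyte-sized cells Eng was lower in HIRA KO areas without overlap (1159 ± 222 against 961 ± 55.2 CPM, exact permutation test, p = 0.1), where 18.3% of all targets were lower without overlap. Per megapixel it was higher, 9.07 ± 1.25 against 7.10 ± 1.44, with overlap. Over all cells the edgeR log2 fold changes of Vegfa, Kdr and Eng were -0.25, -0.20 and -0.23 with adjusted p of 0.832, 0.832 and 0.832 (Benjamini-Hochberg), in a fit that called 0.2% of targets.

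Other genes of the same pathways were read from lists in small cells. Of 5 VEGF ligands measured, 0 passed the edgeR test and the median log2 fold change was -0.01, against -0.01 over all targets. Vegfb, a ligand of VEGFR1, was at 1646 ± 119 CPM in hepatocyte-sized and 1419 ± 128 CPM in small cells, and Vegfc, the lymphatic growth factor, at 799 ± 76.3 and 785 ± 186 CPM. Vegfd and Pgf did not exceed the highest negative probe over all cells. Flt1 had 896 ± 106 CPM in small cells and a log2 fold change of -0.16 (SE 0.13, adjusted p = 0.928, edgeR with Benjamini-Hochberg), and in small cells it was 0.16 higher near Glul-high cells in 5 of 6 areas. No size difference was detected for Flt1 (log2 CPM difference 0.00, higher in hepatocyte-sized cells in 3 of 6 areas), nor for the endothelial markers Tie1 (-0.02), Tek (0.05) and Lyve1 (0.07).

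Of 15 endoglin partner receptors and ligands, Eng included, 0 passed the test in small cells. A negative log2 fold change was found for 12, against 517 of all 998 targets, and the median was -0.15, against -0.01 over all targets. Acvrl1, which encodes the ALK1 receptor, was at 752 ± 93.5 CPM in small cells with a fold change of -0.15, and Bmpr2, the type 2 receptor, at 1063 ± 142 CPM with -0.18. Bmp2, a ligand made by sinusoidal endothelium, had the lowest value of the list: 2172 ± 268 CPM in control and 1475 ± 70.2 CPM in HIRA KO areas, a log2 fold change of -0.47 (SE 0.17, unadjusted p = 0.0183, Benjamini-Hochberg adjusted p = 0.701, edgeR). The type 1 receptors Acvr1, Bmpr1a and Tgfbr1 had fold changes of -0.20, -0.04 and 0.11, the type 2 receptors Tgfbr2 and Acvr2a had -0.08 and -0.13, and the ligands Bmp5, Bmp7, Tgfb1 and Tgfb3 had -0.25, -0.18, -0.13 and 0.03. Like Eng, Tgfbr2, Bmp2, Bmp5 and Tgfb1 were higher in small than in hepatocyte-sized cells in 6 of 6 areas, as 21% of all targets were. Near Glul-high cells the list had a median difference of 0.09 in small cells against 0.00 over all targets, and Eng was its member that was higher near in all 6 areas.

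The remaining lists had 0 calls in small cells as well. The 5 angiopoietin and Tie genes had a median log2 fold change of -0.12 and all were negative, as were 517 of all 998 targets. Tie1, an endothelial receptor kinase, was at -0.35 (unadjusted p = 0.0569, adjusted p = 0.848, edgeR with Benjamini-Hochberg) and Angpt2 at -0.003. Angpt1 did not exceed the highest negative probe over all cells. The 9 Notch and ephrin genes had a median of -0.01. Of 6 hypoxia-responsive genes, a class to which Vegfa itself belongs, Ndrg1 was at -0.33 (unadjusted p = 0.039) and Ldha, lactate dehydrogenase, at 0.34 (unadjusted p = 0.0675), with a list median of 0.01. In hepatocyte-sized cells the same pair had -0.34 (unadjusted p = 0.0129) and 0.48 (unadjusted p = 0.0133) in edgeR, and neither passed the adjustment. Of 4 hepatocyte regulators listed beside Vegfa, Neat1 had -0.70 in hepatocyte-sized cells (unadjusted p = 0.0344, edgeR), and it too did not pass.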

How the data were processed

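Transcripts of 1000 gene targets and 10 negative probes were imaged on 1 slide of control and HIRA KO liver. The authors deposited raw counts per target and segmented cell, together with cell areas, slide positions and the compartment of each decoded transcript. Decoding and segmentation were done by the platform, and their software version is not given in the sources used here. The deposited counts were not filtered or normalized.

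The labels assign runs of fields of view to the groups. Slide positions showed that these runs form 6 areas, and each of the 50 fields was closer to its own area's centre than to any other. Cells with under 20 counts (2215) or with an area over 5 times the geometric mean of 10967 square pixels (252) were left out. Counts were summed per area and class of cells. CPM was computed here by dividing by the summed gene counts of the same cells, and log2 values used a pseudocount of 1 CPM. Count densities per cell area served as the other scale. Median counts per cell were 131 to 258 in hepatocyte-sized and 59 to 91 in small cells of an area.

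Genotypes were compared over all targets with edgeR 4.0.16 (TMM, filterByExpr, quasi-likelihood test, Benjamini-Hochberg) in R 4.3.3, with DESeq2 1.42.0 and limma 3.58.1 as alternatives. Single values were compared by two-sided exact permutation tests of 3 areas against 3, and differences within an area by two-sided exact sign-flip tests over 6 areas. Python 3.11.15, numpy 2.4.6, pandas 2.3.3, scipy 1.17.1 and matplotlib 3.10.9 were used. Scripts were tested on simulated data.

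The members and the lists were chosen with earlier results of these data known. Named genes were the members, the 5 targets likest to each over fields, all measured ligands, receptors and endoglin partners above the highest negative probe, and up to 3 members a direction with the lowest p of each other list. The assignment of small cells to the marker list with the most counts (at least 2, ties unassigned) was chosen after seeing the data, as were the scaling by negative probes and the split of the distance comparison by endothelial markers. The 2 B cell markers chose 242 cells, too few in some areas for an order. The scale of a pixel was not used, so distances and areas stay in pixels.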

Additional observations from a re-analysis of the deposited data

Results flagged for a closer look

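Transcripts that the segmentation left outside cells entered no comparison above. Of the Vegfa transcripts, 2.42%, 2.88% and 2.80% lay outside cells in control areas 1 to 3 and 4.40%, 2.93% and 3.10% in HIRA KO areas 1 to 3. The HIRA KO mean of 3.47% was above the control mean of 2.70%, and the groups did not overlap (exact permutation test, p = 0.1, the smallest possible). Of all 1000 targets, 44 (4.4%) had a higher share in the HIRA KO areas without overlap and 0 had a lower one. For all targets the share was 7.40% in HIRA KO and 6.29% in control areas (exact permutation test, p = 0.3). Kdr was at 4.83% and 3.23% and Eng at 4.88% and 3.78% in the same order, with overlap.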

How the results depend on the processing

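No member was called between genotypes under any alternative. The log2 fold change of Vegfa in endothelial-marked cells turned to 0.026 with at least 3 marker counts and to 0.037 with hepatocyte-sized cells from 12000 square pixels. Leaving out 1 area moved it from -0.15 to 0.011, Eng over all cells from -0.37 to 0.052, Kdr in hepatocyte-sized cells from -0.18 to 0.013 and Eng there from -0.23 to 0.048. Vegfa in hepatocyte-sized cells ranged from -0.37 to -0.033. With the mean negative probe subtracted from the CPM, without TMM, the values were -0.75 for Kdr and -0.51 for Eng in hepatocyte-sized cells, -0.70 and -0.46 over all cells, and -0.64 for Eng in small cells. Per mean negative-probe count Kdr was at -0.62 and Eng at -0.59 in small cells, and Vegfa at -0.36 in hepatocyte-sized and -0.31 in endothelial-marked cells (exact permutation p of 0.1 or more throughout). In edgeR by library size alone, without subtraction, Kdr and Eng were at -0.20 and -0.26 in hepatocyte-sized cells. They were at -0.32 and -0.34 over all cells, and Eng was at -0.53 in small cells. The share of endothelial-marked cells turned to -2.06 percentage points in cells of at least 50 counts and to -0.086 with at least 3 marker counts, and ranged from -1.36 to 2.51 without 1 area. With 5 areas the sign-flip test cannot pass 0.05 by its construction, so only values are given: 0.85 to 0.96 for the size difference of Vegfa, -0.64 to -0.46 for Kdr and -0.90 to -0.77 for Eng, and near Glul-high cells 0.36 to 0.50 for Kdr, 0.43 to 0.53 for Eng and -0.017 to 0.049 for Vegfa. Around Vegfa-high cells they were -0.010 to 0.043 for Kdr and 0.0018 to 0.027 for Eng. The Kdr difference near Glul-high cells missed the threshold with the top 2% of cells (0.43), in endothelial-marked cells (0.32) and in cells with no endothelial marker count (0.34), and that of Eng with the nearer against the farther 50% of distances (0.29) and in endothelial-marked cells (0.43); the cause was not tested. The nuclear share was 71.2% for Vegfa in small cells, 44.5% and 63.4% for Kdr and 47.5% and 63.6% for Eng in hepatocyte-sized and small cells, and the genotype difference turned to -0.33 for Kdr and 0.18 for Eng in hepatocyte-sized cells. Without 1 area that difference was -5.28 to -3.19 for Vegfa, -0.92 to 1.62 for Kdr and -2.49 to 0.50 for Eng.

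With the slide row as a block, the pairing of areas given by the slide, edgeR called 17 targets over all cells, 44 in hepatocyte-sized, 9 in small and 5 in endothelial-marked cells, against 2, 1, 1 and 0. DESeq2 called 10, 15, 5 and 6, and limma-voom per field 11, 29, 12 and 5. Fields of an area are not independent replicates and entered that fit with the area as a correlated block. Scaling by library size alone moved the median of all targets by -0.12 over all cells. Kdr is limited by its counts, 1.45 times the highest negative probe.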
